A study of Homo sapiens with 12 samples.

Results

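The 10 enzymes described here make serine, one-carbon units and asparagine. PHGDH, PSAT1 and PSPH form the serine pathway, SHMT1 and SHMT2 turn serine into glycine, MTHFD1, MTHFD1L, MTHFD2 and ALDH1L2 carry folate-bound one-carbon units, and ASNS makes asparagine. They were taken from the count table by gene symbol. All 10 were found among its 30017 symbols, and all 10 were among the 16010 genes with enough counts to be tested. The study profiled RNA from THP-1, a human monocytic leukaemia line, edited for IRAK4, the kinase that carries signals from Toll-like and interleukin-1 receptors. The compound was CC-885, a ligand of the cereblon ubiquitin ligase that leads to degradation of the translation termination factor GSPT1. There were 4 groups of 3 libraries each: IRAK4 knockout cells with 50 nM CC-885, IRAK4 knockout cells with DMSO, wild-type cells with 50 nM CC-885 and wild-type cells with DMSO, all taken at 12 h. Cells had been electroporated with or without Cas9 and a guide against IRAK4 and then grown from single cells. The labels give neither the number of clones behind each genotype nor whether the 3 libraries of a group were separate cultures. A genotype difference and a difference between clones therefore cannot be told apart, and the p-values measure only the spread between these libraries. Counts are of transcripts, so enzyme amount and activity were not measured. In these bulk samples, fewer cells of a type and less RNA per cell cannot be told apart.

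Serine synthesis branches from glycolysis: an intermediate is oxidised, aminated and dephosphorylated in turn. Serine then gives its side-chain carbon to tetrahydrofolate, mostly in mitochondria in proliferating cells, and the carbon leaves the organelle as formate for purine and thymidylate synthesis in the cytosol. Many of these genes, and ASNS, are known targets of the transcription factor ATF4, whose translation rises when cells lack amino acids or accumulate misfolded protein.

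Start-site sequence was available for 7 of the 10 enzymes as RefSeq windows on GRCh38.p14, each from 250 bases before to 50 bases after an annotated start. No window was available for PSPH, SHMT2 or ALDH1L2. The windows were searched on both strands for TGATGNAA, the core of the C/EBP-ATF composite element that ATF4 can bind, and for CACGTG, the E-box that MYC and related factors can bind. The first motif occurred in 3.62% and the second in 7.26% of all 35116 RefSeq windows. The matches at the enzymes are shown because the enzymes with and without them can then be read against the responses to CC-885. ASNS had the first motif in 1 of 2 windows, 68 bases before the start, and MTHFD1L had it at a single site, which lies in 3 of its 4 windows; these 3 overlap each other. MTHFD1 had the second motif 15 bases before its start, and MTHFD1L also held one. In each stretch below, read 5′ to 3′ on the strand of the gene, the capitals mark the motif.
ASNS, chr7:97872409-97872528, minus strand: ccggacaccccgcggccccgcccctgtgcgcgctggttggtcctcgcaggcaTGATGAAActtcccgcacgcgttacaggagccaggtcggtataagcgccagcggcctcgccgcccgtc
MTHFD1L, chr6:150866346-150866375, plus strand: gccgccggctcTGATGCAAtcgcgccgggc
MTHFD1, chr14:64388323-64388352, plus strand: tggccagtccctaagCACGTGggttgggtt
The windows of PHGDH, PSAT1, SHMT1 and MTHFD2 held neither string of letters. A match is a description of the sequence, and no binding was measured.

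Each library held between 46903984 and 56675539 counts, and 18709 to 19219 symbols had at least 1 count. IRAK4 itself was at 30.7 ± 1.05 CPM, counts scaled to the TMM-normalised library size (SD, n = 3), in knockout cells with CC-885 and 8.26 ± 0.847 CPM in knockout cells with DMSO, against 72.8 ± 9.53 CPM in wild-type cells with CC-885 and 52.2 ± 1.57 CPM in wild-type cells with DMSO. It was lower in knockout cells under both treatments, by a log2 difference of -1.25 ± 0.09 (SE) under CC-885 (edgeR quasi-likelihood test with Benjamini-Hochberg adjustment over all 16010 genes, adjusted p = 1.14e-08) and -2.66 ± 0.10 under DMSO (adjusted p = 1.68e-11). All 11 monocytic markers, among them CD14, CD33 and SPI1, were detected. Their summed level was 1500 to 1522 CPM in knockout cells with CC-885 and 3461 to 4428 CPM in knockout cells with DMSO. In wild-type cells it was 1806 to 1897 CPM with CC-885 and 2884 to 2965 CPM with DMSO. The sum was thus lower with CC-885 in both genotypes. It was higher in knockout cells than in wild-type cells under DMSO and lower under CC-885. LYZ, CEBPA and SPI1 had the highest means of the 11 markers. Under DMSO the mean of LYZ was 1763 CPM in knockout cells and 992 CPM in wild-type cells. That of SPI1 was 374 and 382 CPM. CD14 went the other way from the sum and was higher with CC-885 in both genotypes. The part of these markers in the results was not tested. Summed markers of T and NK cells, nearly all of it NCAM1 and NKG7, were at 11.5 to 11.7, 30.3 to 32.9, 54.4 to 67.0 and 115 to 117 CPM in the same 4 groups, and those of epithelial, stromal and endothelial cells, nearly all of it PECAM1, at 92.5 to 99.0, 413 to 460.1, 101 to 115 and 268 to 303 CPM. The T-cell genes CD3E and CD3G, the B-cell gene MS4A1 and the collagen genes COL1A2 and COL3A1 were at 0. Replicate 3 of wild-type cells with CC-885 stood apart. A chi-square comparison of its counts gave 76.1 and 62.3 for each degree of freedom with the other 2 libraries, which gave 5.05 with each other. Its library name begins with 52, and those of the other 2 begin with 51. In knockout cells with CC-885 every name begins with 51, and the other groups hold both prefixes. The labels do not explain the prefix. Without this replicate 3, all 10 enzymes kept their direction and call in the wild-type response and in the genotype difference under CC-885. The same held for the difference between the responses. The log2 value moved most for MTHFD2, by 0.12 in each comparison, and by at most 0.05 for the other enzymes.

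Over the 10 enzymes together, the share of all counts was 0.0987% ± 0.00193 in knockout cells with CC-885 and 0.0844% ± 0.00104 in knockout cells with DMSO (SD, n = 3 each), a ratio of 1.17. In wild-type cells the share was 0.194% ± 0.00295 with CC-885 and 0.0971% ± 0.00342 with DMSO, a ratio of 2.00. The 3 libraries of a group lay close together, with a median coefficient of variation of 4.04% over all enzymes and groups. It ranged from 0.246% for ASNS in knockout cells with CC-885 to 14.2% for MTHFD2 in wild-type cells with CC-885.

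With CC-885, 5 of the 10 enzymes rose and 4 fell in knockout cells, where 38.9% of all tested genes were called higher and 40.0% lower. In wild-type cells 8 rose and 2 fell, against 35.7% of all tested genes called higher and 36.6% lower. A call here means an adjusted p under 0.05 in edgeR's quasi-likelihood test over all 16010 genes. Because most genes changed, the direction and size carry more than the count: the median log2 change of the enzymes was 0.27 in knockout cells, where that of all tested genes was -0.03, and 1.36 in wild-type cells, where that of all tested genes was -0.03. The difference between the genotypes' responses was tested by an interaction term. The response in knockout cells was below that in wild-type cells for 8 enzymes and above it for 1, where 16.8% of all tested genes were called below and 17.9% above. The comparisons share libraries with each other, so their values stand side by side and are not independent.

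**Figure D1:**
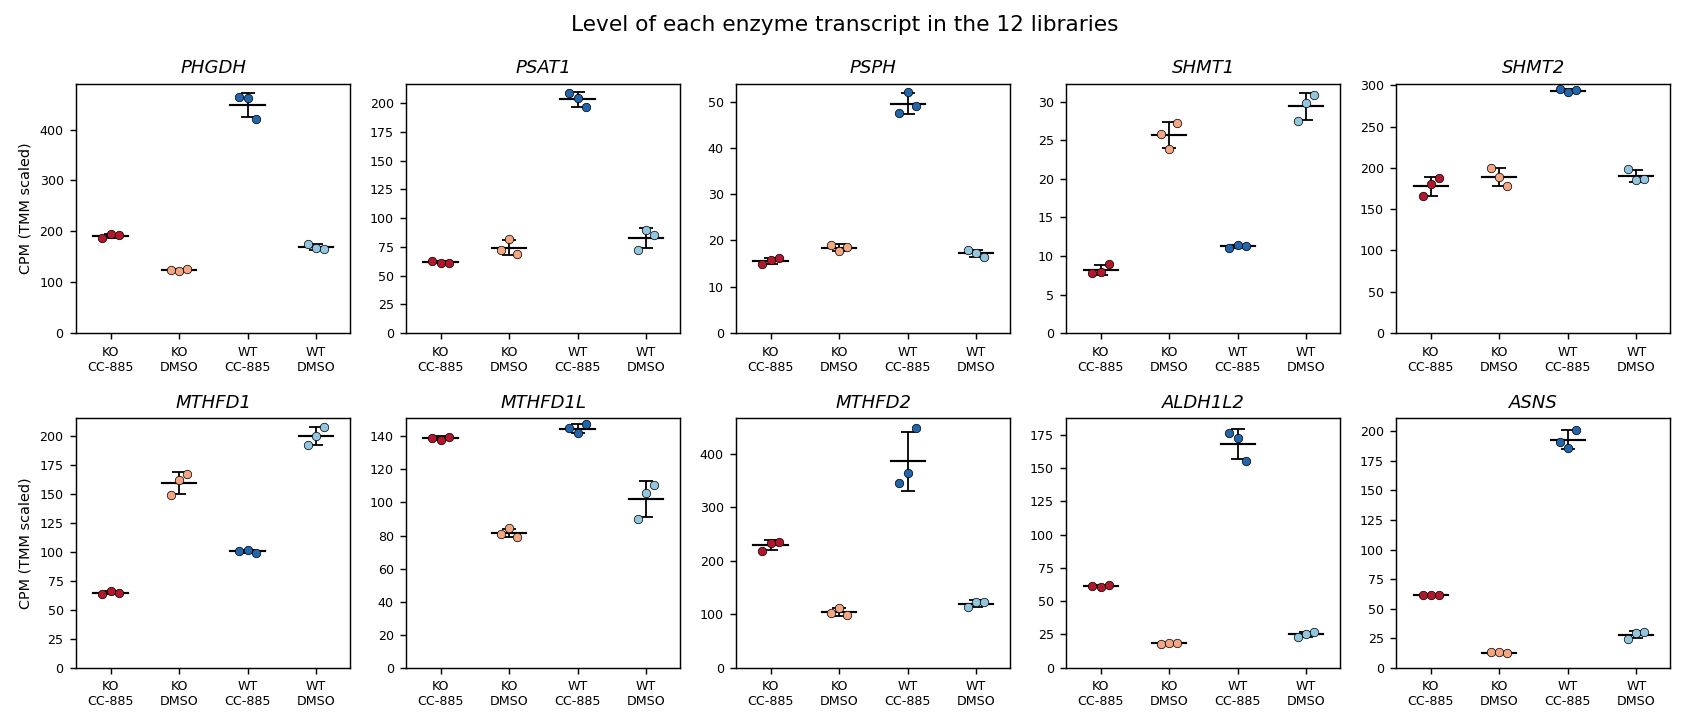
Level of each of the 10 enzymes in every library, in CPM, by group; points are libraries and bars show the mean ± SD of 3 libraries. ASNS sits between 61.4 and 61.7 CPM in knockout cells with CC-885 and between 186 and 201 CPM in wild-type cells with CC-885, while SHMT1 and MTHFD1 are lower with CC-885 in both genotypes.

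The first enzyme of the serine pathway was induced in both genotypes, while the next 2 enzymes rose in wild-type cells and fell slightly in knockout cells. PHGDH, the dehydrogenase that draws 3-phosphoglycerate into serine synthesis, lies on chromosome 1 at 119711934 to 119744215 (GRCh38). It had 187, 194 and 193 CPM in knockout cells with CC-885 and 123, 122 and 126 CPM in knockout cells with DMSO. Wild-type cells had 463, 462 and 421 CPM with CC-885 and 175, 167 and 165 CPM with DMSO. The 3 libraries of wild-type cells with CC-885 were the highest, those of knockout cells with DMSO the lowest, and no groups overlapped. PHGDH rose by a log2 change of 0.63 ± 0.05 (SE) in knockout cells, or 1.55-fold (edgeR, adjusted p = 1.69e-08). The rise was 1.41 ± 0.05 in wild-type cells, or 2.66-fold (edgeR, adjusted p = 2.01e-12). The difference between the responses was -0.78 ± 0.08 (edgeR interaction, adjusted p = 3.28e-06).

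PSAT1, the aminotransferase of the second step, lies on chromosome 9 at 78297125 to 78330093. It had 62.7, 61.3 and 60.7 CPM in knockout cells with CC-885 and 71.8, 81.6 and 69.1 CPM in knockout cells with DMSO. Its values in wild-type cells were 209, 204 and 197 CPM with CC-885 and 72.6, 89.3 and 85.0 CPM with DMSO. Knockout cells with CC-885 were therefore below every DMSO library, wild-type cells with CC-885 were above all others, and the 2 DMSO groups overlapped. In knockout cells PSAT1 fell, with a log2 change of -0.27 ± 0.08 (edgeR, adjusted p = 0.00455). In wild-type cells it rose by 1.30 ± 0.08, or 2.47-fold (edgeR, adjusted p = 2.8e-10). The responses differed by -1.57 ± 0.11 (edgeR interaction, adjusted p = 1.55e-07).

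PSPH, the phosphatase that releases serine, lies on chromosome 7 at 56011064 to 56051444 and also fell in knockout cells and rose in wild-type cells. It had 14.9, 15.8 and 16.1 CPM in knockout cells with CC-885 and 19.1, 17.6 and 18.5 CPM in knockout cells with DMSO. In wild-type cells it had 47.6, 52.0 and 49.1 CPM with CC-885 and 18.0, 17.2 and 16.4 CPM with DMSO. The treated and untreated libraries did not overlap within either genotype, and the high group was again wild-type cells with CC-885. PSPH fell in knockout cells, with a log2 change of -0.24 ± 0.07 (edgeR, adjusted p = 0.0065). It rose in wild-type cells by 1.53 ± 0.07, or 2.88-fold (edgeR, adjusted p = 1.59e-11). The responses differed by -1.76 ± 0.10 (edgeR interaction, adjusted p = 2.05e-08), the farthest from 0 of the 10 enzymes.

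The hydroxymethyltransferases, which pass the side-chain carbon of serine to tetrahydrofolate and leave glycine, moved apart by compartment. SHMT1, the cytosolic enzyme, lies on chromosome 17 at 18327873 to 18363550 and fell in both genotypes. It had 7.84, 7.87 and 8.91 CPM in knockout cells with CC-885 and 25.9, 23.9 and 27.2 CPM in knockout cells with DMSO. Wild-type cells had 11.02, 11.4 and 11.3 CPM with CC-885 and 27.5, 29.9 and 30.9 CPM with DMSO. Every library with CC-885 was below every library with DMSO, whatever the genotype. The log2 change was -1.65 ± 0.08 in knockout cells (edgeR, adjusted p = 2.24e-11) and -1.39 ± 0.08 in wild-type cells (edgeR, adjusted p = 2.58e-10). The difference between the responses, -0.26 ± 0.12, did not pass the test (edgeR interaction, adjusted p = 0.0953). Exons of SHMT1 overlap those of SMCR8 on the opposite strand over 196 bases, 6.95% of its exon length; SMCR8 had 47914 counts over all 12 libraries, and whether counting used strand is not given in the sources used here.

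SHMT2, the mitochondrial enzyme, lies on chromosome 12 at 57229711 to 57234935. It had 165, 180.1 and 187 CPM in knockout cells with CC-885 and 199.7, 189 and 178 CPM in knockout cells with DMSO. Its values in wild-type cells were 295, 291 and 294 CPM with CC-885 and 198, 186 and 187 CPM with DMSO. Wild-type cells with CC-885 stood alone at the top, and the other 3 groups overlapped each other. SHMT2 rose in wild-type cells by a log2 change of 0.63 ± 0.06, or 1.54-fold (edgeR, adjusted p = 1.01e-07). In knockout cells its log2 change was -0.09 ± 0.06 (edgeR, adjusted p = 0.186); it reached -0.24 and was called lower with upper-quartile scaling. The responses differed by -0.71 ± 0.08 (edgeR interaction, adjusted p = 1.65e-05).

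Of the folate enzymes, the cytosolic MTHFD1 fell and the mitochondrial MTHFD2, MTHFD1L and ALDH1L2 rose in both genotypes. MTHFD1, a trifunctional enzyme that interconverts formate, formyl-, methenyl- and methylene-tetrahydrofolate, lies on chromosome 14 at 64388353 to 64460025. It had 63.4, 65.7 and 64.7 CPM in knockout cells with CC-885 and 149, 161 and 167 CPM in knockout cells with DMSO. In wild-type cells it had 101, 101 and 99.0 CPM with CC-885 and 192, 199 and 208 CPM with DMSO. The 4 groups did not overlap, and within each genotype the CC-885 libraries were the lower ones. MTHFD1 fell by a log2 change of -1.30 ± 0.06 in knockout cells (edgeR, adjusted p = 3.54e-12) and -0.99 ± 0.06 in wild-type cells (edgeR, adjusted p = 1.58e-10). The fall was deeper in knockout cells, with a difference in response of -0.31 ± 0.08 (edgeR interaction, adjusted p = 0.0066).

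MTHFD2, the mitochondrial dehydrogenase and cyclohydrolase that is high in embryonic and cancer cells, lies on chromosome 2 at 74198615 to 74217565. It had 218, 234 and 236 CPM in knockout cells with CC-885 and 102, 111 and 98.1 CPM in knockout cells with DMSO. Wild-type cells had 346, 363 and 448 CPM with CC-885 and 114, 123 and 123 CPM with DMSO. All CC-885 libraries were above all DMSO libraries, and the 448 CPM came from the library that stood apart. MTHFD2 rose by a log2 change of 1.14 ± 0.09 in knockout cells, or 2.20-fold (edgeR, adjusted p = 3.4e-09), and by 1.68 ± 0.09 in wild-type cells, or 3.21-fold (edgeR, adjusted p = 5.13e-11). The responses differed by -0.54 ± 0.12 (edgeR interaction, adjusted p = 0.00234). Without replicate 3 of wild-type cells with CC-885 this difference was -0.42 ± 0.08 (adjusted p = 0.000453). MTHFD2 shares 1324 exon bases, 29.7% of its exon length, with SLC4A5 on the opposite strand, which had 1067 counts over all 12 libraries.

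MTHFD1L, the mitochondrial ligase that releases formate, lies on chromosome 6 at 150865702 to 151101887. It had 139, 138 and 139.8 CPM in knockout cells with CC-885 and 80.8, 84.5 and 79.2 CPM in knockout cells with DMSO. Its values in wild-type cells were 145, 142 and 147 CPM with CC-885 and 89.9, 106 and 111 CPM with DMSO. The CC-885 libraries of both genotypes lay between 138 and 147 CPM, above all DMSO libraries, and the DMSO libraries of knockout cells were below those of wild-type cells. MTHFD1L rose by a log2 change of 0.77 ± 0.07 in knockout cells, or 1.70-fold (edgeR, adjusted p = 2.39e-08), and by 0.50 ± 0.07 in wild-type cells, or 1.42-fold (edgeR, adjusted p = 4.61e-06). It was the 1 enzyme with the larger rise in knockout cells, by 0.26 ± 0.09 (edgeR interaction, adjusted p = 0.0416). That call was lost in 14 of 21 alternative fits, in which the value ran from 0.08 to 0.35.

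ALDH1L2, the mitochondrial dehydrogenase that oxidises formyl-tetrahydrofolate to carbon dioxide with formation of NADPH, lies on chromosome 12 at 105019790 to 105084458. It had 61.3, 60.9 and 62.5 CPM in knockout cells with CC-885 and 18.1, 18.4 and 18.9 CPM in knockout cells with DMSO. In wild-type cells it had 176, 172 and 155 CPM with CC-885 and 22.8, 25.3 and 27.0 CPM with DMSO. The 4 groups did not overlap, in the order of wild-type CC-885, knockout CC-885, wild-type DMSO and knockout DMSO. ALDH1L2 rose by a log2 change of 1.74 ± 0.07 in knockout cells, or 3.33-fold (edgeR, adjusted p = 1.66e-12), and by 2.74 ± 0.07 in wild-type cells, or 6.70-fold (edgeR, adjusted p = 2.39e-14). The responses differed by -1.01 ± 0.10 (edgeR interaction, adjusted p = 2.93e-06).

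ASNS, which makes asparagine from aspartate with glutamine as the nitrogen donor, had the largest rise of the 10 enzymes in knockout cells and one close to that of ALDH1L2 in wild-type cells. It lies on chromosome 7 at 97851677 to 97928441, and its window holds the TGATGAAA printed above. It had 61.5, 61.7 and 61.4 CPM in knockout cells with CC-885 and 13.03, 12.9 and 12.5 CPM in knockout cells with DMSO. Wild-type cells had 191, 186 and 201 CPM with CC-885 and 24.3, 29.8 and 30.2 CPM with DMSO. The groups stood in the same order as for ALDH1L2, without overlap. ASNS rose by a log2 change of 2.26 ± 0.08 in knockout cells, or 4.79-fold (edgeR, adjusted p = 2.06e-13), and by 2.78 ± 0.08 in wild-type cells, or 6.86-fold (edgeR, adjusted p = 3.85e-14). Without replicate 3 of wild-type cells with CC-885 the wild-type log2 change was 2.74 for ASNS and 2.80 for ALDH1L2. The responses of ASNS differed by -0.52 ± 0.10 (edgeR interaction, adjusted p = 0.00129). In the annotation used, AC079781.5 covers 79.7% of the exon length of ASNS on the same strand, and no count under that name was used here. The log2 response in knockout cells was 81.4% of that in wild-type cells for ASNS, 67.6% for MTHFD2, 63.3% for ALDH1L2 and 44.9% for PHGDH, while for PSAT1, PSPH and SHMT2 the sign was opposite. It was 152% for MTHFD1L, 131% for MTHFD1 and 119% for SHMT1.

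**Figure D2:**
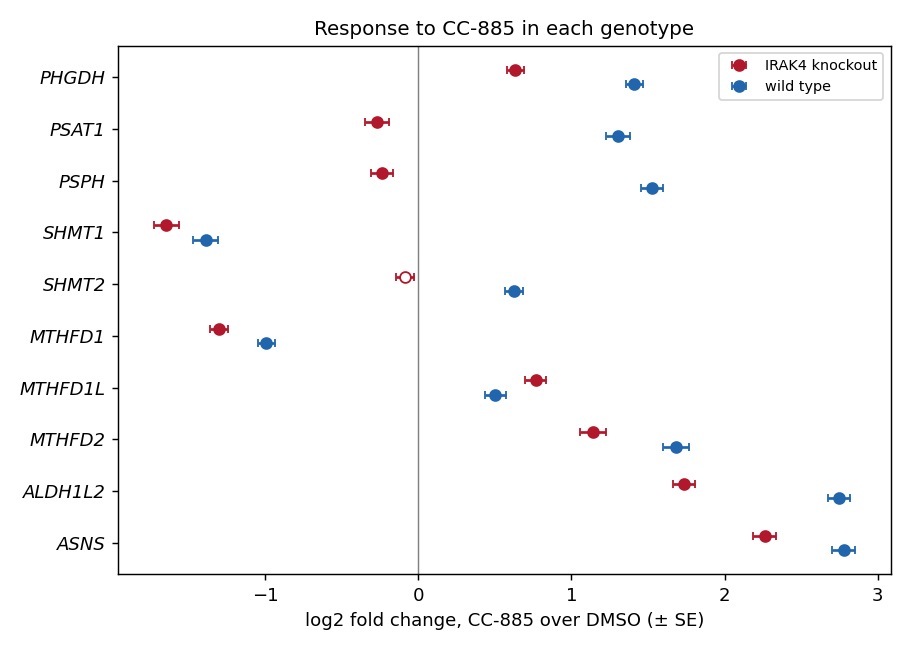
Log2 change with CC-885 for each enzyme in knockout cells and in wild-type cells, with its standard error; filled points passed an adjusted p of 0.05 in edgeR's test and open points did not. SHMT2 in knockout cells is the 1 open point, and PSAT1 and PSPH lie at -0.27 and -0.24 in knockout cells and at 1.30 and 1.53 in wild-type cells.

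Set between the genotypes under CC-885, 9 of the 10 enzymes were lower in knockout cells and none was called higher, where 30.8% of all tested genes were lower and 27.8% higher. The count of 0 higher was the same in edgeR at an unadjusted p under 0.05 and in DESeq2. PSAT1 was 3.302-fold lower in knockout cells than in wild-type cells (log2 difference -1.72 ± 0.08, edgeR, adjusted p = 7.52e-11). PSPH was 3.17-fold lower (-1.66 ± 0.07, edgeR, adjusted p = 4.4e-11) and ASNS 3.14-fold lower (-1.65 ± 0.07, edgeR, adjusted p = 5.84e-11). These 3 differences are of like size, although ASNS rose in knockout cells while PSAT1 and PSPH fell. ALDH1L2 was 2.73-fold, PHGDH 2.34-fold and SHMT2 1.65-fold lower. MTHFD1L differed by -0.06 ± 0.07 (edgeR, adjusted p = 0.462). The median log2 difference was -0.99 over the enzymes and -0.02 over all tested genes.

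Under DMSO, 6 of the 10 enzymes were lower in knockout cells and none was called higher, where 28.4% of all tested genes were lower and 21.3% higher. In edgeR at an unadjusted p under 0.05, 7 were lower and 0 higher, and in DESeq2 5 were lower and 0 higher. ASNS had the widest gap and was 2.19-fold lower in knockout cells (log2 difference -1.13 ± 0.08, edgeR, adjusted p = 6.8e-09). PHGDH differed by -0.45 ± 0.05 (edgeR, adjusted p = 4.53e-06), ALDH1L2 by -0.44 ± 0.07 (edgeR, adjusted p = 9.22e-05) and MTHFD1 by -0.33 ± 0.06 (edgeR, adjusted p = 0.000157). The calls for MTHFD1L, at -0.32 ± 0.07, and SHMT1, at -0.20 ± 0.08, were the ones lost under other settings, SHMT1 in 13 of 16. PSAT1, PSPH, SHMT2 and MTHFD2 did not pass, with log2 differences of -0.15 ± 0.08, 0.10 ± 0.07, -0.01 ± 0.06 and -0.21 ± 0.08. PSAT1 was called lower at -0.23 (edgeR, adjusted p = 0.0159) without replicate 1 of wild-type cells with DMSO and at -0.22 (adjusted p = 0.0339) without replicate 2 of knockout cells with DMSO. The share of calls that were higher in knockout cells over all genes was 42.9% with the scaling used here and 60.7% with upper-quartile scaling, under which PSPH was also called higher, at 0.22.

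**Figure D3:**
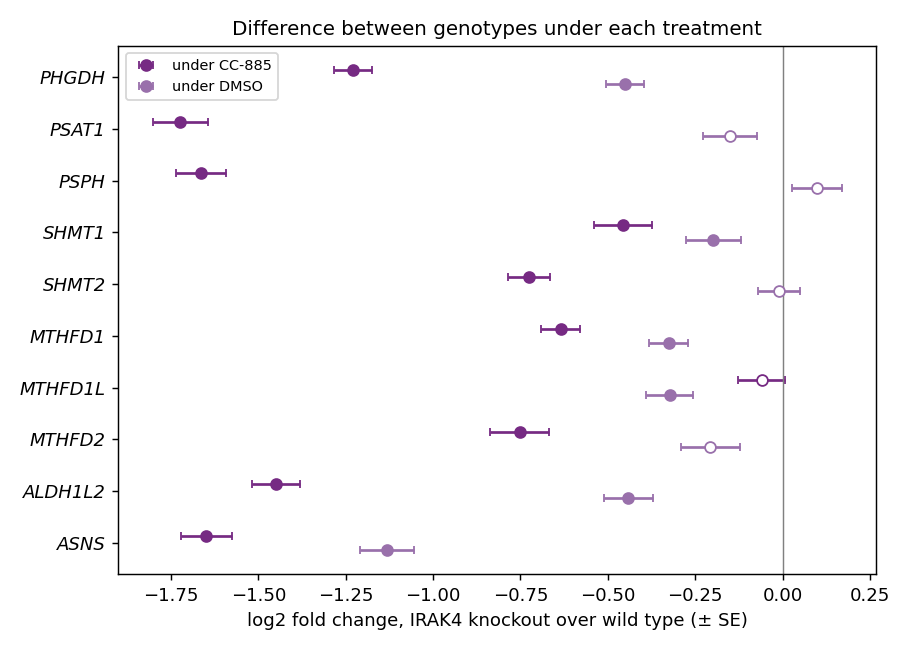
Log2 difference between knockout and wild-type cells for each enzyme under CC-885 and under DMSO, with its standard error; filled points passed an adjusted p of 0.05 in edgeR's test and open points did not. Under CC-885 all points but that of MTHFD1L are filled and below 0, and under DMSO the difference of ASNS, at -1.13, is the widest.

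To set levels of different enzymes side by side, CPM was divided by the length of the merged exons in kilobases. This length, 6908 bases for MTHFD1 and 4456 for MTHFD2, joins the exons of all annotated transcripts of a gene. It can exceed the transcript expressed and so lower the level per kb. The order of enzymes and the size of their ratios therefore rest on it, while changes between groups do not. On this scale PHGDH led in knockout cells with CC-885, at a mean of 72.0 CPM per kb, followed by SHMT2 at 58.6 and MTHFD2 at 51.4, and SHMT1 was the lowest at 2.91. In knockout cells with DMSO the order began with SHMT2 at 62.4, PHGDH at 46.4 and PSAT1 at 33.9, and ALDH1L2 was the lowest at 2.45. In wild-type cells with CC-885 PHGDH was at 168.7 CPM per kb and SHMT2 at 96.9, and SHMT1 was again lowest at 3.99. In wild-type cells with DMSO PHGDH and SHMT2, at 63.4 and 62.8, overlapped, and ALDH1L2 was lowest at 3.32. Every neighbour in the order was separated in knockout cells with CC-885, where MTHFD1L, at 36.3, PSAT1, at 28.1, ASNS, at 24.7, MTHFD1, at 9.36, ALDH1L2, at 8.15, and PSPH, at 7.18, stood between MTHFD2 and SHMT1. Elsewhere some neighbours overlapped in their libraries. In knockout cells with DMSO these were MTHFD2, MTHFD1 and MTHFD1L, at 23.3, 23.0 and 21.3, and SHMT1 and PSPH, at 9.10 and 8.45. In wild-type cells with CC-885 they were PSAT1, MTHFD2 and ASNS, at 92.9, 86.6 and 77.4, and PSPH and ALDH1L2, at 22.7 and 22.3. In wild-type cells with DMSO, MTHFD2 and MTHFD1L, at 26.9 and 26.7, and ASNS and SHMT1, at 11.3 and 10.4, also overlapped.

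Ratios of these levels per kb within a library showed the shift from cytosolic to mitochondrial transcripts. The ratio of SHMT2 to SHMT1 was 20.2 ± 0.975 with CC-885 and 6.88 ± 0.681 with DMSO in knockout cells (SD, n = 3 each). In wild-type cells it was 24.3 ± 0.579 with CC-885 and 6.04 ± 0.585 with DMSO. The ratio of MTHFD2 to MTHFD1 was 5.49 ± 0.164 with CC-885 and 1.02 ± 0.0916 with DMSO in knockout cells, and 5.97 ± 0.917 with CC-885 and 0.933 ± 0.0233 with DMSO in wild-type cells. Both ratios were higher in every CC-885 library than in any DMSO library, in both genotypes. Within the serine pathway, the ratio of PSAT1 to PHGDH was 0.391 ± 0.0143 with CC-885 and 0.732 ± 0.0763 with DMSO in knockout cells, against 0.552 ± 0.0149 with CC-885 and 0.595 ± 0.0796 with DMSO in wild-type cells. The ratio of PSPH to PSAT1 lay between 0.212 and 0.255 in all 4 group means. A ratio within a library shows unequal change and not which of its genes changed.

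**Figure D4:**
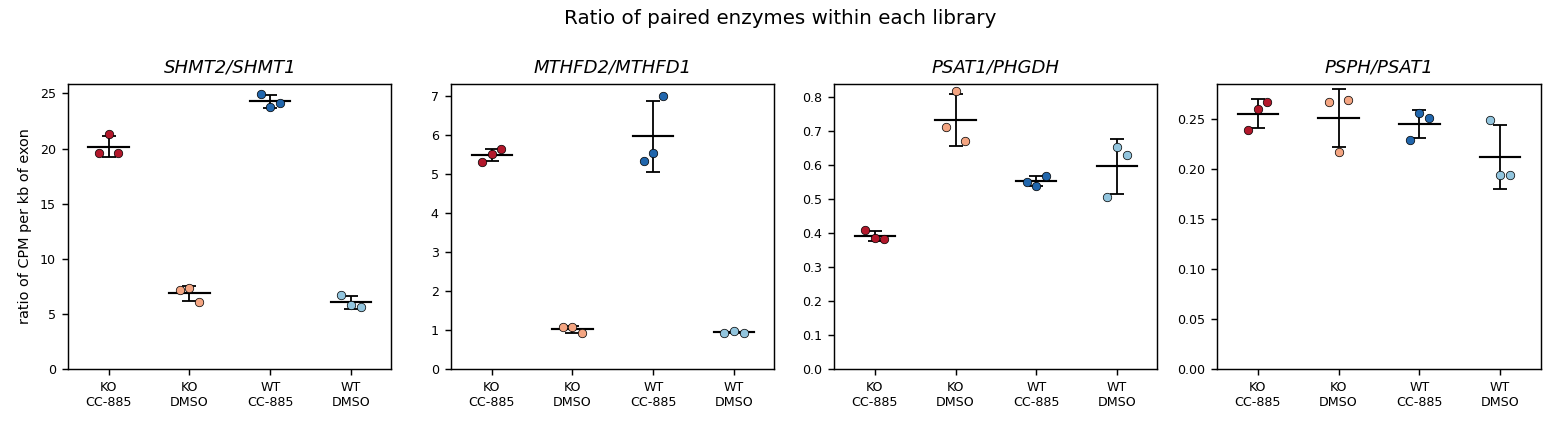
Ratios of levels per kb between pairs of enzymes in every library, by group, with the mean ± SD of 3 libraries. SHMT2 to SHMT1 is 20.2 with CC-885 and 6.88 with DMSO in knockout cells and 24.3 with CC-885 and 6.04 with DMSO in wild-type cells, while the group means of PSPH to PSAT1 lie between 0.212 and 0.255.

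The 4 group-mean log2 CPM of each gene were centred on their own mean. The likeness of patterns was then measured as the root mean square difference between genes. A small value means that shape and size of change over the 4 groups are both alike. The values were not scaled by range, so pairs of genes with unequal ranges are not ranked by shape alone. Among the enzymes the closest pair was PSAT1 and PSPH, at 0.109 log2 units, followed by SHMT1 and MTHFD1 at 0.199, PHGDH and MTHFD2 at 0.272, and ALDH1L2 and ASNS at 0.289. The most distant pair was SHMT1 and ASNS at 2.09. Over all tested genes with a range wide enough to compare, PSPH was the nearest of 7263 candidates to PSAT1, ahead of GIN1 at 0.117 and IFIH1 at 0.131. The nearest to ASNS, among 2076 candidates, were CECR2 at 0.183, DUSP5 at 0.188 and STK38L at 0.213. Nearest to MTHFD2 were CDC42EP1 at 0.051, LOC100506060 at 0.069 and PKD1 at 0.069. Nearest to MTHFD1 were AGFG2 at 0.013, PRPS1, a phosphoribosyl pyrophosphate synthetase, at 0.033, and CRIPAK at 0.033.

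Of 11 transcription factors and cofactors that act on genes of these pathways, 10 rose and 1, MYC, fell with CC-885 in each genotype. Of all tested genes, 38.9% were called higher in knockout cells and 35.7% in wild-type cells. The median log2 changes of the 11 were 2.34 in knockout cells and 2.91 in wild-type cells. Those of all tested genes were -0.03 in both. ATF4 was at 1641 ± 85.7 CPM with CC-885 and 225 ± 7.12 CPM with DMSO in knockout cells, and at 1354 ± 187 CPM with CC-885 and 235 ± 14.9 CPM with DMSO in wild-type cells (SD, n = 3 each). ATF4 protein was not measured. The log2 rise of the ATF4 transcript was 2.87 ± 0.09 in knockout cells and 2.53 ± 0.09 in wild-type cells (edgeR interaction 0.34 ± 0.12, adjusted p = 0.0355). Without replicate 3 of wild-type cells with CC-885 that difference was 0.46 ± 0.09 (adjusted p = 0.000261) for ATF4. ATF5, a related factor that is itself an ATF4 target, was at 84.4 ± 1.35 CPM with CC-885 and 39.1 ± 0.606 CPM with DMSO in knockout cells, and at 404 ± 49.5 CPM with CC-885 and 53.8 ± 1.54 CPM with DMSO in wild-type cells. It rose by 1.11 ± 0.07 in knockout cells and 2.91 ± 0.08 in wild-type cells, and the responses differed by -1.80 ± 0.10 (edgeR interaction, adjusted p = 2.31e-08). Of the 11 factors, the response in knockout cells was called below that in wild-type cells for 7 and above it for 1. Of all tested genes, 16.8% were called below and 17.9% above. DDIT3, which encodes the stress factor CHOP, and CEBPB also rose less in knockout cells, with differences in response of -0.51 ± 0.13 (edgeR interaction, adjusted p = 0.007) and -0.67 ± 0.14 (adjusted p = 0.00177). MYC fell with a log2 change of -2.67 in knockout cells and -1.74 in wild-type cells (edgeR interaction -0.93 ± 0.09, adjusted p = 3.24e-06). The part of these factors in the enzymes' levels was not tested.

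**Figure D5:**
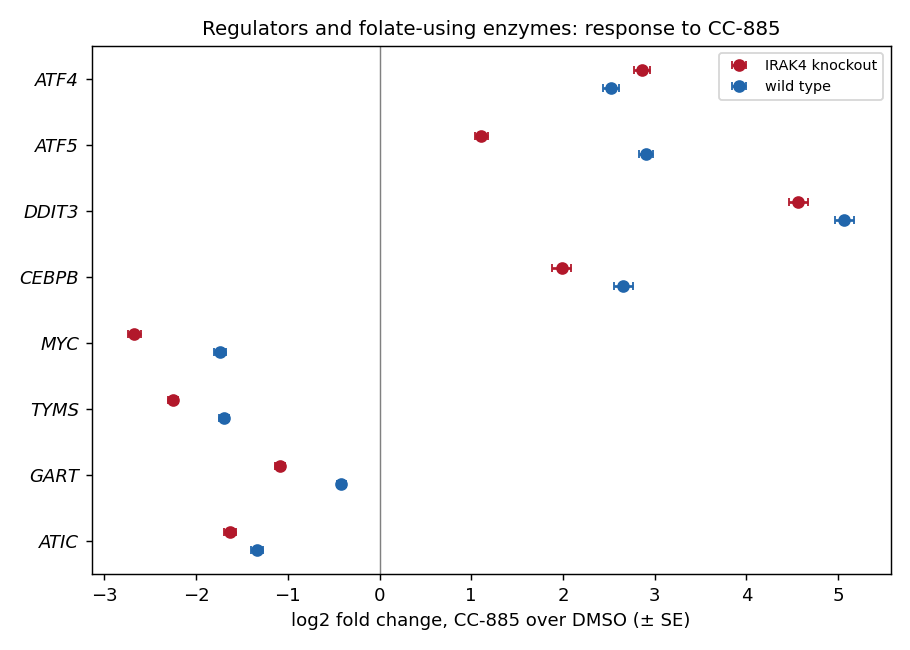
Log2 change with CC-885 of regulators and folate-using enzymes in knockout cells and in wild-type cells, with its standard error; all points are filled, since all passed an adjusted p of 0.05 in edgeR's test. ATF4 lies at 2.87 in knockout cells and 2.53 in wild-type cells, whereas ATF5 lies at 1.11 in knockout cells and 2.91 in wild-type cells.

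The pathways that spend one-carbon units differed among themselves. Of 10 other genes of purine synthesis, 9 fell and 0 rose with CC-885 in knockout cells and all 10 fell in wild-type cells, with median log2 changes of -1.10 in knockout cells and -0.80 in wild-type cells, where 40.0% and 36.6% of all tested genes were called lower. Of 9 tested genes of the methionine cycle and transsulfuration, 4 rose and 4 fell in knockout cells, and 3 rose and 4 fell in wild-type cells. The shares of all tested genes called higher were 38.9% in knockout cells and 35.7% in wild-type cells. GART, which uses formyl-tetrahydrofolate at an early step, fell by 1.08 ± 0.05 in knockout cells and by 0.41 ± 0.05 in wild-type cells on the log2 scale. ATIC, which uses it near the end, fell with a log2 change of -1.63 in knockout cells and -1.33 in wild-type cells. TYMS, thymidylate synthase, was at 65.8 ± 2.20 CPM with CC-885 and 313 ± 8.09 CPM with DMSO in knockout cells, and at 83.2 ± 2.67 CPM with CC-885 and 269 ± 10.8 CPM with DMSO in wild-type cells. Of 5 tested genes of folate uptake and retention, 4 fell in knockout cells and all 5 in wild-type cells, with a median log2 change of -2.10 in knockout cells and -1.59 in wild-type cells. The folate carrier SLC19A1 fell with log2 changes of -2.63 in knockout cells and -1.65 in wild-type cells.

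Genes that use or move serine and its relatives were mixed. Of 10 tested genes of serine and glycine transport and use, 5 rose and 5 fell in knockout cells, and 5 rose and 4 fell in wild-type cells. Of all tested genes, 38.9% were called higher and 40.0% lower in knockout cells, and 35.7% and 36.6% in wild-type cells. SLC6A9, a plasma-membrane glycine transporter, was at 6.01 ± 0.202 CPM with CC-885 and 0.736 ± 0.158 CPM with DMSO in knockout cells, and at 18.8 ± 0.988 CPM with CC-885 and 0.583 ± 0.0880 CPM with DMSO in wild-type cells. CTH, which makes cysteine from serine-derived cystathionine, was at 11.4 ± 1.17 CPM with CC-885 and 1.75 ± 0.183 CPM with DMSO in knockout cells, and at 31.7 ± 2.83 CPM with CC-885 and 1.07 ± 0.233 CPM with DMSO in wild-type cells. Both rose in each genotype and rose less in knockout cells, with differences in response of -1.996 ± 0.21 for SLC6A9 (edgeR interaction, adjusted p = 6.92e-06) and -2.18 ± 0.20 for CTH (adjusted p = 1.87e-06). GOT1, an aspartate aminotransferase, rose by 0.72 ± 0.09 in knockout cells and 2.35 ± 0.09 in wild-type cells. GOT2, another aspartate aminotransferase, fell with log2 changes of -0.43 ± 0.06 in knockout cells and -0.47 ± 0.06 in wild-type cells. SFXN1, which carries serine into mitochondria, fell with log2 changes of -2.70 in knockout cells and -2.07 in wild-type cells, opposite to MTHFD2 and ALDH1L2 in the same organelle.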

How the data were processed

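Per the labels' protocols, polyadenylated RNA was sequenced as paired-end reads. The values are raw counts for each gene symbol, as deposited, made by the authors with HISAT2 2.0.5 and featureCounts 1.5.2 on GRCh38, per the submitters' processing notes; the labels' protocol also names a mouse build, but the symbols are human. How strand and multi-mapping reads were treated is not given in the sources used here. Counts were filtered by edgeR's filterByExpr, scaled by TMM and tested with edgeR 4.0.16 (robust quasi-likelihood fit over all 12 libraries with 1 coefficient per group, R 4.3.3, limma 3.58.1), with Benjamini-Hochberg adjustment over 16010 genes and calls at an adjusted p under 0.05. The scripts were tested on simulated data. CPM uses TMM library sizes, except for the cell type markers, where it uses library totals. Promoter windows are from RefSeq on GRCh38.p14, and exon lengths are the merged exons of the GENCODE basic annotation. Alternatives were RLE, upper-quartile and library-size scaling, DESeq2 1.42.0, other filters and fits of the compared groups only. Others were a replicate block, the name prefix as a covariate, the 51-prefix libraries alone and leaving out each library. The text names all 10 enzymes, IRAK4, and from related gene lists preset regulators and the called genes with the largest rise or fall. The enzymes and lists were chosen with earlier results of these data known. Some genes of these lists are not reported here.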

Additional observations from a re-analysis of the deposited data

Results flagged for a closer look

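The response to CC-885 differed between the genotypes for 27 of the enzymes and related genes described here, by edgeR's interaction test with an adjusted p under 0.05, and each value below is the log2 response in knockout cells minus that in wild-type cells. Of the enzymes, the difference was -0.78 for PHGDH, -1.57 for PSAT1, -1.76 for PSPH and -0.71 for SHMT2. It was -0.31 for MTHFD1, 0.26 for MTHFD1L, -0.54 for MTHFD2, -1.01 for ALDH1L2 and -0.52 for ASNS. SHMT1 was the 1 enzyme for which the difference did not pass. Among regulators it was 0.34 for ATF4, -1.80 for ATF5, -0.51 for DDIT3, -0.67 for CEBPB and -0.93 for MYC.

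Among users of one-carbon units the difference was -0.56 for TYMS, -0.67 for GART and -0.30 for ATIC. For the folate transporters it was -0.98 for SLC19A1 and -0.85 for SLC46A1. It was -2.18 for CTH, -1.996 for SLC6A9, -1.63 for GOT1 and -0.63 for SFXN1, -0.50 for GCSH and -0.68 for MAT2A. The edited gene IRAK4 differed by 1.41: its log2 change with CC-885 was 1.89 in knockout cells and 0.48 in wild-type cells. GSPT1, the protein target, differed by 0.54, with log2 changes in transcript of 0.72 in knockout cells and 0.18 in wild-type cells.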

How the results depend on the processing

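Over 22 other settings, 800 of 850 values of the enzymes kept direction and call, 28 lost a call, 12 gained one and 10 reversed, all between the genotypes under DMSO. Of these, 9 were SHMT2, whose log2 difference became 0.015 with RLE factors, 0.11 with upper-quartile factors, 0.043 with library size only, 0.015 in DESeq2, 0.045 with no filter, 0.027 with a mean of at least 1 CPM, 0.049 with only the groups compared, and -0.049 to 0.031 with 1 library left out. The other was PSAT1, at 0.071 in libraries whose names begin with 51 alone, a prefix the labels do not explain. Under DMSO with upper-quartile factors, ATF4 became 0.061, GART 0.095 and MAT2A 0.047. GART also became 0.026 with library size only, 0.028 with no filter, 0.0099 with a mean of at least 1 CPM and 0.032 with only the groups compared. The cause was not tested. Upper-quartile factors called 1 enzyme higher in knockout cells under DMSO and moved the median of all genes by 0.12 there and by -0.15 for the response in knockout cells. The count of enzymes with a larger response in knockout cells became 0 with upper-quartile factors, library size only, no filter, a mean of at least 1 CPM and the libraries of the 51 prefix, and 0 to 1 with 1 library left out. The share of higher calls for the difference in response was 51.6% with TMM and 39.7% with upper-quartile factors. Enzymes lower in knockout cells under DMSO numbered 5 to 8 with 1 library left out. SHMT2 in knockout cells was also called lower with library size only (-0.19), no filter (-0.15) and the 51 prefix alone (-0.13). With the titles' replicate number as a block, 5 enzymes rose and 4 fell in knockout cells, 8 rose and 2 fell in wild-type cells, and under DMSO 7 were lower in knockout cells, MTHFD2 being the added one. Whether the numbers pair the samples was not settled. Deviations were correlated over 0.1 in 8 of 18 same-numbered pairs and in 8 of 36 pairs with other numbers. The same-numbered values ran from -0.19 to 0.41. The highest was for replicate 3 of wild-type cells with CC-885 and replicate 3 of knockout cells with DMSO. Both names begin with 52, so number and prefix cannot be told apart in this pair. With the prefix as a covariate, SHMT1 under DMSO was at -0.16 and lost its call (edgeR, adjusted p = 0.0738).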

Other observations

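With CC-885, 38.9% of all tested genes were called higher and 40.0% lower in knockout cells, and 35.7% and 36.6% in wild-type cells. Glycine cleavage breaks glycine into a one-carbon unit in mitochondria. Of its 4 genes, 3 fell and 1 rose with CC-885 in knockout cells, and 2 fell and 1 rose in wild-type cells. GCSH, its lipoyl carrier protein, fell with log2 changes of -2.19 ± 0.11 in knockout cells (edgeR, adjusted p = 1.72e-11) and -1.70 ± 0.10 in wild-type cells (adjusted p = 4.37e-10). DLD, the shared dehydrogenase of the glycine, pyruvate and oxoglutarate complexes, rose by 0.51 ± 0.08 in knockout cells and 0.27 ± 0.08 in wild-type cells; the difference between these responses, 0.23 ± 0.11 (adjusted p = 0.104), passed at 0.34 (adjusted p = 0.00238) without replicate 3 of wild-type cells with CC-885. Of the 4 genes of proline synthesis, 1 rose and 3 fell in knockout cells and 2 rose and 2 fell in wild-type cells. PYCRL, a cytosolic reductase that forms proline, fell with log2 changes of -0.96 ± 0.09 in knockout cells and -1.17 ± 0.09 in wild-type cells. In asparagine, aspartate and glutamine turnover, ASRGL1, an asparaginase, fell with log2 changes of -0.89 ± 0.09 in knockout cells and -1.10 ± 0.09 in wild-type cells. MAT2A, which makes S-adenosylmethionine, fell with log2 changes of -1.65 ± 0.17 in knockout cells and -0.97 ± 0.17 in wild-type cells.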
